A study of Rattus norvegicus with 16 samples.

Results

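Ccn2 and 8 other genes that report on, or carry out, transcription by YAP and TAZ (Ccn1, Ccn3, Ankrd1, Axl, Thbs1, Amotl2, Tead1 and Yap1) were followed in rat thyroid cells in which the thyroid transcription factor Pax8 had been silenced. The 9 genes were set by name, but with earlier results of these data known. Probes of the arrays were assigned to a gene through their RefSeq accession, which named 10768 of 41012 probes, for 8899 genes. Of the 9 genes, 6 were measured, by 8 probes: Ccn1 and Axl by 2 probes each, and Ccn2, Ccn3, Ankrd1 and Thbs1 by a single probe. Amotl2, Tead1 and Yap1 had no matched probe.

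The cells were PCCl3, a differentiated follicular cell line from rat thyroid, grown in medium with donor calf serum and a hormone mixture that contains TSH. Cells that had received Pax8 siRNA (siPax8) were co-hybridized on two-colour Agilent arrays of the rat genome with wild type (wt) cells or with cells that had received a scrambled siRNA (siScramble). The siRNAs were transfected transiently with Lipofectamine at 10 ng/ml, and RNA was isolated at 48 hours. Each comparison had 4 biological replicates on 8 arrays, with the dyes swapped between the arrays of a replicate. The labels call the other control wild type, whereas the methods list cells treated with lipofectamine, so whether these cells differ from the rest by the transfection itself cannot be told from the sources used here. The study's design scheme names the same siPax8 samples in both comparisons, which therefore are not independent of each other.

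Values are log2 ratios of siPax8 over control cells, so that a positive value is a higher level in siPax8 cells. Direction was read from the dye labels. A probe passed the threshold at an adjusted p below 0.005 (limma, Benjamini-Hochberg over 41012 probes), the level the study's methods name. A gene was called higher or lower when each of its probes passed in that direction. Since the arrays measured whole cultures, fewer cells of a kind and less RNA per cell cannot be told apart.

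The share of spots well above background was 52.9% to 59.5% per array in Cy3 and 51% to 57.9% in Cy5, and the number of arrays limits the precision. Between arrays of a comparison the log2 ratios of all probes correlated from 0.426 to 0.832 against wt cells. Against siScramble cells these correlations were lower, from -0.0574 to 0.666. The silenced gene itself, Pax8, had log2 ratios of -0.84, -0.57, -0.59 and -0.26 in the 4 replicates against wt cells (mean -0.56, limma adjusted p = 0.000472). Against siScramble cells these were -0.58, -0.29, -0.12 and -0.01 (mean -0.25, limma adjusted p = 0.143), so that Pax8 passed the threshold against wt cells only, and the siScramble comparison holds a replicate in which its ratio was close to 0. The call against wt cells was lost without replicate 3 (limma adjusted p = 0.00562), with siPax8 in Cy3 alone (0.0181) and with the intensities that the scanner software had processed (0.0132). These are mRNA ratios of a single probe. For the protein, the study reports an immunoblot with less Pax8 in siPax8 cells than in both controls, while the RNA came from additional transfections. All 11 measured genes of a list of 12 thyroid follicular markers were well above background on every array in both channels by at least 1 probe. Of these markers 9 were lower and 1 higher against wt cells, and 1 was lower against siScramble cells, whereas among all 8899 named genes 9.46% were lower and 7.26% higher against wt cells and 1.31% were lower against siScramble cells. Markers of other cell types were mostly dim: none of Pecam1, Col3a1, Dcn, Lum, Pdgfrb, Itgam and Calcb was well above background on any array. By at least 1 probe Col1a2, Cd68, Calca and Ret were on all, though Col1a2, Calca and Ret also had a probe that was not. Of the genes detected on all arrays, Cd68 was higher against wt cells (0.30, limma adjusted p = 0.000797). For Ret 1 of 3 probes, A_44_P308662, was lower against wt (-0.30, limma adjusted p = 0.000307) and siScramble cells (-0.38, limma adjusted p = 0.00113). The summed level of the 5 measured fibroblast markers, in log2 units, was 9.09 to 9.20 in siPax8 cells and 9.08 to 9.16 in wt cells, and that of the 5 C cell markers was 10.30 to 10.54 and 10.48 to 10.62. That of the 4 measured leukocyte markers was 8.77 to 8.95 and 8.66 to 8.94, and that of the 2 endothelial markers 7.39 to 7.54 and 7.42 to 7.55. Against siScramble cells the ranges of these lists overlapped too. The sums include probes that were not well above background, so their overlap cannot show that the levels of such markers were alike. The part of such markers in the results below was not tested.

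YAP and TAZ (the latter encoded by Wwtr1) are transcriptional coactivators that have no DNA-binding domain of their own and reach promoters through TEAD factors. The kinases of the Hippo cascade phosphorylate them, which keeps them in the cytoplasm or marks them for degradation, and cell shape, contact and attachment act on the same switch. TAZ is also known as a partner of Pax8 on thyroid promoters. Ccn2 (connective tissue growth factor) and Ccn1 (Cyr61) encode secreted matricellular proteins and are, with Ankrd1, the most widely used reporters of this switch.

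The promoters with their matches to the TEAD motif are shown first, since Ccn2 holds more copies of it than any other member with a promoter entry. The 250 bases before the annotated transcription start were taken from RefSeq (build GRCr8), in which 6 of the 9 genes had an entry. The regions are chr1:22624615-22624864 for Ccn2, chr2:237225690-237225939 for Ccn1 and chr1:90424010-90424259 for Axl, all on the minus strand, and chr3:125510000-125510249 on the plus strand for Thbs1. They are written 5′ to 3′ on the strand of the gene, and capitals mark each match to the TEAD motif, CATTCC or its complement GGAATG.
Ccn2: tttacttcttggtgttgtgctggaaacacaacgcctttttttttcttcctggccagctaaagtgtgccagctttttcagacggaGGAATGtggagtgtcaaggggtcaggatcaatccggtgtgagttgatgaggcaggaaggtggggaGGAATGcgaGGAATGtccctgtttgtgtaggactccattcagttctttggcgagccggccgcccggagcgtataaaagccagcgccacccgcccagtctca
Ccn1: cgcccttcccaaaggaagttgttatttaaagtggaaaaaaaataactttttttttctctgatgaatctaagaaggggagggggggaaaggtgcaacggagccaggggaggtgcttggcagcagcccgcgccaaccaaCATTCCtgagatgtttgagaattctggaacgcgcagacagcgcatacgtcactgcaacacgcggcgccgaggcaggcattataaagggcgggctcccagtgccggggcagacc
Thbs1: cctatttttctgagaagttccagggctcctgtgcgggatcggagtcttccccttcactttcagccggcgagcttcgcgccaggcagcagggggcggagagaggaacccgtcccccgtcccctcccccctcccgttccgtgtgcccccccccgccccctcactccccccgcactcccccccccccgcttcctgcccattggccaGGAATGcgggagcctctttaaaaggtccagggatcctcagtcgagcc
Axl: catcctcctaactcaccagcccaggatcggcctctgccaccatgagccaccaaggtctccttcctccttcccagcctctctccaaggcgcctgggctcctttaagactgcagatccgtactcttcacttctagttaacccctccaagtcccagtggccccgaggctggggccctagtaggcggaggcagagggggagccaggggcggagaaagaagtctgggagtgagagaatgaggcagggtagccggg

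Ccn2 had 3 matches, at 166 to 161, 101 to 96 and 92 to 87 bases before its start, the last pair separated by a few bases only. Ccn1 had 1 match, at 113 to 108 bases, and Thbs1 had 1, at 47 to 42 bases. Amotl2 (76 to 71 bases) and Yap1 (116 to 111 bases) also had 1 match each, while these letters were not in the Axl window. Among 33469 rat promoters of the same length, 12.1% held at least 1 match and 27 promoters, or 0.0807%, held 3 or more. The AP-1 motif TGANTCA, which reads the same on both strands, was in 6.34% of all promoters and in none of the 6 members, and so no TEAD match overlapped it. Such matches describe the letters in the window and were not tested for binding.

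**Figure D1:**
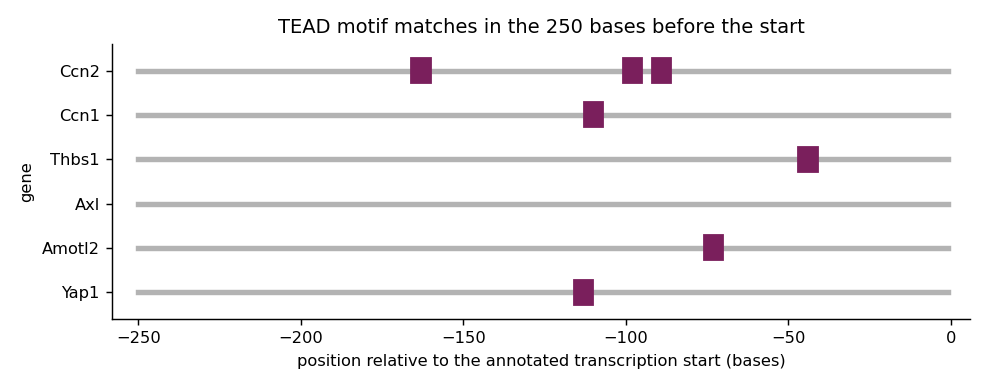
Matches to CATTCC or GGAATG (boxes) in the 250 bases before the annotated transcription start of the 6 members with a promoter sequence; the x axis is the position in bases relative to the start. Ccn2 has 3 matches, Ccn1, Thbs1, Amotl2 and Yap1 have 1 each, and Axl has none.

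Ccn2 was higher in siPax8 cells in both comparisons. Its probe (A_42_P484738, NM_022266) is printed in 10 spots on each array, with a mean normalized log2 intensity of 13.49 in siPax8 cells, 13.04 in wt cells and 13.13 in siScramble cells. Against wt cells the 4 replicates gave log2 ratios of 0.42, 0.38, 0.51 and 0.51. These values lie close together and well above 0, with a mean of 0.46 ± 0.07 (SD, n = 4; limma adjusted p = 1.70e-05), or 1.37-fold. Against siScramble cells they were 0.37, 0.34, 0.39 and 0.32. The mean there was 0.36 ± 0.03 (SD, n = 4; limma adjusted p = 0.000559), or 1.28-fold, and again every replicate was above 0. The ratio to wt cells exceeded that to siScramble cells by 0.10 (95% interval 0.0064 to 0.19), which did not pass the threshold (limma adjusted p = 0.191).

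**Figure D2:**
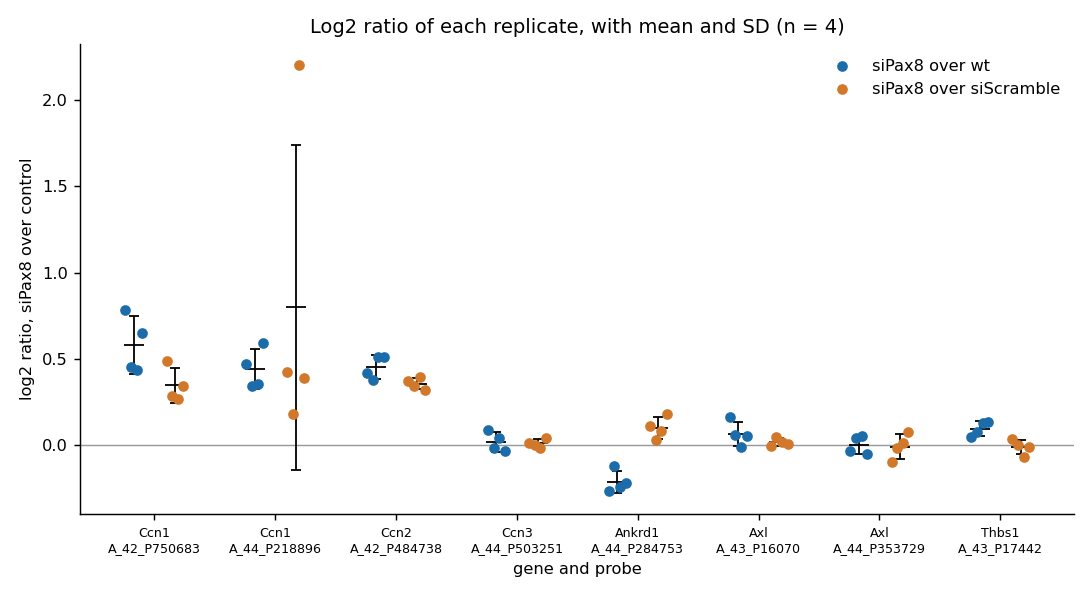
Log2 ratio of siPax8 over wt (blue) and over siScramble (orange) cells for each of the 8 member probes (x axis); points are the 4 replicates after averaging the dye swaps, and the dash and bars are the mean and SD. Ccn2 and both Ccn1 probes lie above 0 in all replicates, Ankrd1 lies below 0 against wt and above 0 against siScramble cells, and a single replicate of Ccn1 (A_44_P218896) stands at 2.20.

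The repeated spots show how small the measurement error of Ccn2 was within an array. Against wt cells 79 of 79 usable spots were above 0, from 0.213 to 0.628, with 1 spot left out as an outlier of its array. Against siScramble cells 80 of 80 were above 0, from 0.163 to 0.527. The median SD between spots of the same array was 0.0451 and 0.0411, respectively, and spots of an array are not replicates of the condition. Within the 4 slides, each of which held 2 arrays of each comparison, the Ccn2 ratio lay between 0.429 and 0.474 against wt and between 0.343 and 0.382 against siScramble cells. With siPax8 in Cy5 the mean ratio to wt cells was 0.42 and that to siScramble cells 0.32, and with siPax8 in Cy3 these were 0.49 and 0.40.

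The direction of Ccn2 was positive under every alternative processing, but its call was not always past the threshold. With the intensities processed by the scanner software, the ratios were 0.47 and 0.38 and the limma adjusted p were 0.00513 and 0.0254. Against siScramble cells the call also ended with siPax8 in Cy5 alone (limma adjusted p = 0.00690), without replicate 2 (0.00871) and without replicate 3 (0.00613).

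**Figure D3:**
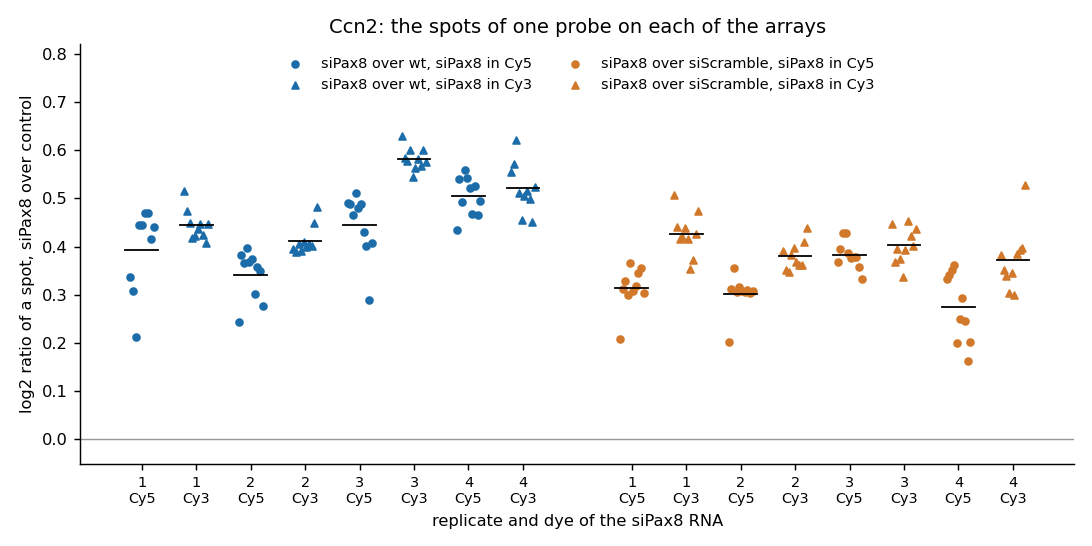
Log2 ratio of siPax8 over control for each usable spot of the Ccn2 probe on each of the 16 arrays, by replicate and by the dye of the siPax8 RNA (x axis); the line is the mean of an array. All 79 spots against wt and all 80 against siScramble cells lie above 0.

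Ccn1 was higher against wt cells by both of its probes. Probe A_42_P750683 (NM_031327) gave 0.78, 0.45, 0.44 and 0.65, a mean of 0.58 ± 0.17 (SD, n = 4; limma adjusted p = 7.51e-05). Probe A_44_P218896, for the same transcript, gave 0.47, 0.35, 0.35 and 0.59, a mean of 0.44 ± 0.12 (SD, n = 4; limma adjusted p = 9.11e-05), or 1.36-fold. Replicates 1 and 4 had the higher values in both probes, and no replicate was near 0. Against siScramble cells only A_42_P750683 passed the threshold, with 0.49, 0.29, 0.27 and 0.35, a mean of 0.35 ± 0.10 (SD, n = 4; limma adjusted p = 0.00356), or 1.27-fold. This call was lost in 9 of 19 alternatives (highest limma adjusted p = 0.404). Among them were each of the 4 that leave out a replicate (limma adjusted p = 0.0061 to 0.0216). The fit of the 8 arrays with the arrays of a replicate paired as a block lost it too (limma adjusted p = 0.0118). The size of its ratio also depended on the dye: with siPax8 in Cy5 it was 0.33 against wt and 0.11 against siScramble cells, and with siPax8 in Cy3 0.83 and 0.58. Against siScramble cells the single arrays with siPax8 in Cy5 gave 0.37, 0.034, 0.004 and 0.045, so that most were near 0. For A_44_P218896 the ratios to wt cells were 0.40 in Cy5 and 0.48 in Cy3. The call of this probe against wt cells was lost with the scanner software's intensities (limma adjusted p = 0.00765) and with both comparisons in a joint fit (0.263). That fit pools the spread of both comparisons, and the SD of this probe against siScramble cells was 0.94. The call of A_42_P750683 against wt cells was kept under every alternative run.

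The second Ccn1 probe held the single value that stood apart from all others. Against siScramble cells A_44_P218896 gave 0.42, 0.18, 2.20 and 0.39, a mean of 0.80 ± 0.94 (SD, n = 4; limma adjusted p = 0.198). The value of replicate 3 came from its array with siPax8 in Cy3, where the log2 ratio was 4.13, against 0.27 with the dyes swapped. On that array the siScramble channel had a spot intensity of 1003 and a local background of 4581, whereas on the other 15 arrays the background of the control channel at this spot was 20.5 to 67, and the scanner software did not mark the spot as an outlier. Without that array the mean was 0.32 (limma adjusted p = 0.0199), and without any background correction it was 0.34 (limma adjusted p = 0.0032). Leaving out that array lowered the number of member probes past the threshold against siScramble cells from 2 to 1, Ccn2. The difference between the comparisons did not pass the threshold for A_42_P750683 (0.23, 95% interval 0.059 to 0.407, limma adjusted p = 0.0955) or for A_44_P218896 (-0.36, limma adjusted p = 0.661).

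Ccn3 (Nov), another secreted CCN protein, was not detected. Its probe was not well above background on any array in either channel, and its ratios of 0.02 and 0.01 are therefore given without a fold. The remaining CCN genes were read beside these. Ccn5 (Wisp2), which lacks the C-terminal domain of the other CCN proteins, gave 0.85, 0.98, 1.07 and 1.11 against wt cells, a mean of 1.00 ± 0.12 (SD, n = 4; limma adjusted p = 7.71e-07), or 2.00-fold. Against siScramble cells it gave 0.72, 0.74, 0.79 and 0.80 (mean 0.76, limma adjusted p = 4.94e-05), or 1.70-fold. The lowest Ccn5 ratio to wt cells lay above the highest of Ccn2 and Ccn1, and Ccn5 stayed past the threshold in both comparisons under every alternative run. Ccn4 (Wisp1) had means of -0.13 and -0.20, neither past the threshold (limma adjusted p = 0.0265 and 0.0238).

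Ankrd1, which encodes a nuclear ankyrin repeat protein, was lower against wt cells and not against siScramble cells. Against wt cells its probe (A_44_P284753, NM_013220) gave -0.27, -0.12, -0.24 and -0.22, all below 0, with a mean of -0.21 ± 0.06 (SD, n = 4; limma adjusted p = 0.00133), or 86.3% of the wt level. Against siScramble cells it gave 0.11, 0.03, 0.09 and 0.18, all above 0, with a mean of 0.10 ± 0.06 (SD, n = 4; limma adjusted p = 0.109), which did not pass the threshold. The difference between the comparisons was -0.31 (95% interval -0.415 to -0.213) and passed it (limma adjusted p = 0.00161), as 3.44% of all probes did in either direction. It was the only 1 of the 8 member probes to do so. The mean log2 intensity of Ankrd1 was 8.79 in siPax8 and 9.005 in wt cells on the arrays of the former comparison, and 8.80 in siPax8 and 8.69 in siScramble cells on those of the latter. The call against wt cells was lost without replicate 3 (limma adjusted p = 0.013), without replicate 4 (0.00948), with siPax8 in Cy3 alone (0.0337) and with the scanner software's intensities (0.0363). The difference was lost without replicate 1, 3 or 4 (limma adjusted p = 0.00934 to 0.0227), with siPax8 in Cy3 alone (0.0452) and with the scanner software's intensities (0.0242), and kept its sign in all of these.

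Thbs1 and Axl were near the detection limit. Thbs1, whose product thrombospondin-1 is a secreted adhesion protein, gave 0.05, 0.08, 0.13 and 0.13 against wt cells (A_43_P17442, NM_001013062; mean 0.10 ± 0.04, SD, n = 4), all above 0 but short of the threshold (limma adjusted p = 0.044). Its values against siScramble cells were 0.04, 0.00, -0.07 and -0.01 (mean -0.01, limma adjusted p = 0.915). At a mean log2 intensity of 6.83 in siPax8 cells, the size of the Thbs1 ratio depended on how background was handled: it was 0.18 against wt cells without background correction and 0.44 with the scanner software's intensities, neither past the threshold (limma adjusted p = 0.0057 and 0.0284). Axl, a receptor tyrosine kinase, was well above background in siPax8 cells on 2 of 8 arrays against wt and on 4 of 8 against siScramble cells by probe A_43_P16070, with means of 0.07 and 0.02. Probe A_44_P353729 was above background on no array. No Axl ratio passed the threshold (limma adjusted p = 0.227 to 0.967).

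**Figure D4:**
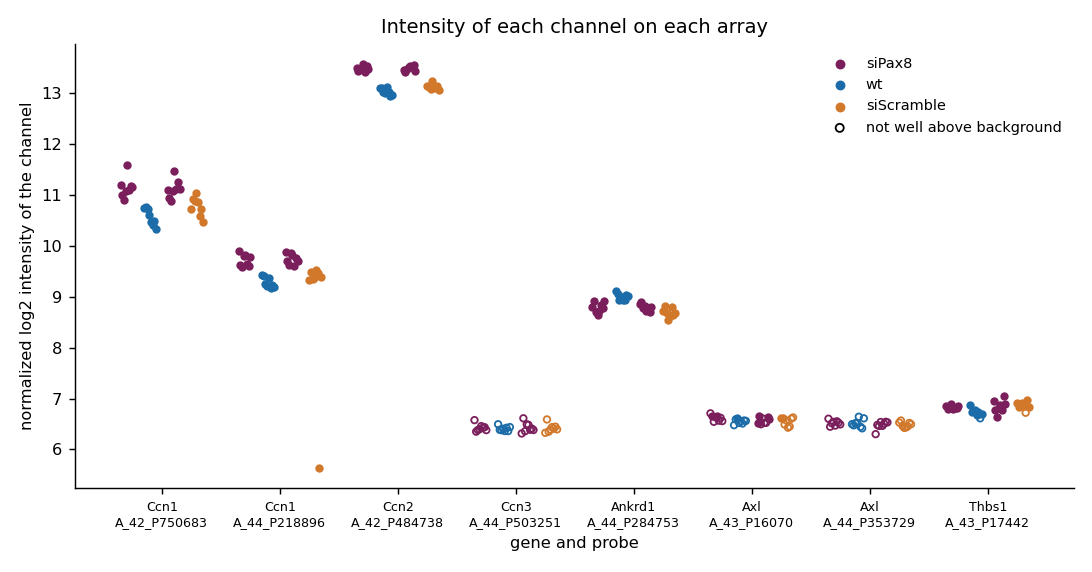
Normalized log2 intensity (y axis) of the 8 member probes in the siPax8 channel (purple) and the wt (blue) or siScramble (orange) channel of each array; open points were not well above background. Ccn3 and Axl A_44_P353729 are at background throughout, and the lone orange point below 6 is the Ccn1 spot whose local background exceeded its signal.

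Counted over genes, 2 of the 6 measured members (Ccn1 and Ccn2) were higher and 1 (Ankrd1) was lower than in wt cells. Among all 8899 named genes 7.26% were higher and 9.46% lower by the same rule. Against siScramble cells 1 of the 6 (Ccn2) was higher and none lower, at a background of 1.67% higher and 1.31% lower, with Ccn1 past the threshold in 1 of its 2 probes. Of all 8899 named genes, 78 passed there in some probe without being called higher or lower. The median log2 ratio of the 6 genes was 0.07 against wt and 0.06 against siScramble cells, compared with -0.01 and 0.00 for all named genes. With so few genes these shares are a description only. Ranked among all 41012 probes from the highest ratio down, Ccn2 had 1.59% of probes above it against wt and 0.89% against siScramble cells.

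Of the coactivators Wwtr1 (TAZ) was measured. It was well above background by both of its probes on all arrays. Probe A_44_P224911 gave 0.04, 0.07, -0.06 and 0.04 against wt cells, scattered around 0, and probe A_44_P518127 gave 0.04, 0.22, 0.14 and 0.07. Neither passed the threshold there (limma adjusted p = 0.723 and 0.0381) or against siScramble cells (means 0.07 and 0.10, limma adjusted p = 0.528 and 0.283). Of the 5 measured genes in a list of 15 such effectors, 1 was higher in both comparisons. Over all named genes 7.26% were higher against wt cells and 1.67% against siScramble cells, and the share higher in both was not computed. The effector was Runx1, a DNA-binding factor that can pair with YAP. It had a mean of 0.55 ± 0.06 against wt cells (SD, n = 4; limma adjusted p = 4.87e-06) and of 0.42 ± 0.08 against siScramble cells (SD, n = 4; limma adjusted p = 0.00104). The latter call was lost without replicate 1 (limma adjusted p = 0.00566) and without replicate 2 (0.0136), and in 3 other alternatives. Vgll4, which competes with YAP for TEAD, had means of -0.09 and 0.12, Smad2 of -0.01 and 0.00, and Smad3, whose probe was not well above background on any array, of 0.06 and 0.02, none past the threshold.

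Other genes widely used as YAP and TAZ targets moved in both directions. Of 27 listed, 17 were measured, of which 7 were higher and 4 lower against wt cells, and 1 higher and 1 lower against siScramble cells. Over all named genes the shares were 7.26% higher and 9.46% lower, and 1.67% and 1.31%, respectively. The median log2 ratio of these 17 genes was 0.02 and 0.01. Gadd45a, a growth arrest gene induced by stress and DNA damage, had the largest ratio, with 1.76, 1.69, 1.71 and 1.79 against wt cells (limma adjusted p = 7.42e-09), or 3.34-fold, and a mean of 0.98 against siScramble cells (limma adjusted p = 4.94e-05), or 1.97-fold. F3, the tissue factor that starts coagulation, was lower in both, at 54.5% of the wt level (-0.88 ± 0.03, SD, n = 4; limma adjusted p = 2.11e-07) and 66.7% of the siScramble level (-0.58 ± 0.07, SD, n = 4; limma adjusted p = 0.000249). The calls of both genes against siScramble cells were lost with the scanner software's intensities alone (limma adjusted p = 0.00526 and 0.0157). Both differed in size between the comparisons, Gadd45a by 0.76 (limma adjusted p = 5.47e-06) and F3 by -0.29 (limma adjusted p = 0.00183).

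The others of this list that were named by rule passed the threshold fully against wt cells only. Igfbp3, which binds insulin-like growth factors, had means of 0.79 and 0.63 by its probes A_42_P627998 and A_44_P180127 against wt cells, and of 0.30 and 0.30 against siScramble cells, where the former probe passed (limma adjusted p = 0.00223) and the latter did not (0.00842). The former call was lost in 6 of 19 alternatives (highest limma adjusted p = 0.0396), among them those without replicate 2, 3 or 4 (0.00982 to 0.023). The latter probe passed in 6 of 19, among them with the arrays of a replicate paired as a block (limma adjusted p = 0.000487). Edn1 (endothelin-1) was higher against wt cells by 0.67 ± 0.08 (SD, n = 4; limma adjusted p = 2.90e-06), with 0.10 against siScramble cells (limma adjusted p = 0.297), and the difference of 0.57 passed the threshold (limma adjusted p = 0.000302). Areg (amphiregulin), a ligand of the EGF receptor, had means of 0.45 and 0.17 (limma adjusted p = 0.00017 and 0.375), with a difference that did not pass (0.174). Birc5 (survivin), a gene of dividing cells, was lower against wt cells, with a mean of -0.67 ± 0.12 (SD, n = 4; limma adjusted p = 8.33e-06), and had a mean of -0.34 against siScramble cells, short of the threshold (limma adjusted p = 0.00547) but past it with the replicate block (0.00132) and without replicate 1 (0.00223).

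**Figure D5:**
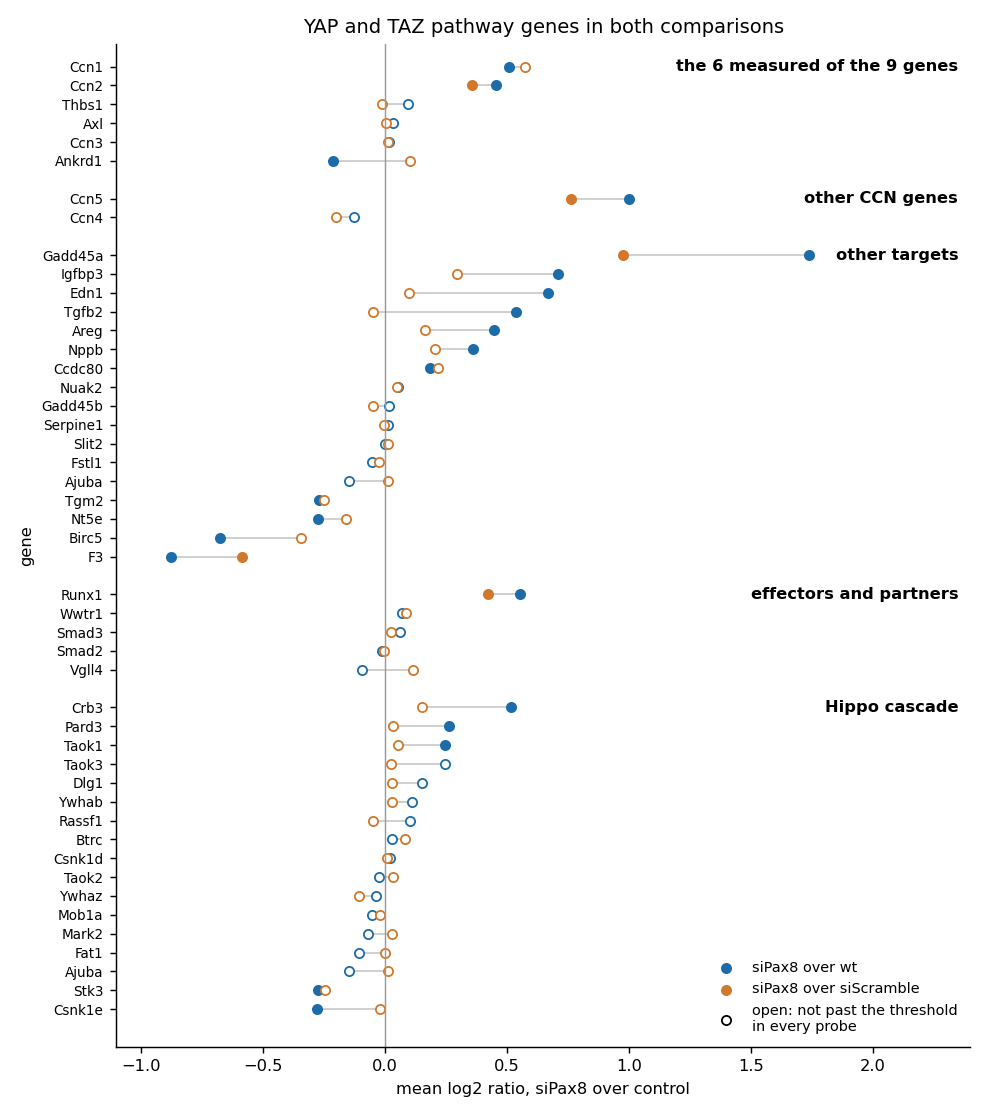
Mean log2 ratio of siPax8 over wt (blue) and over siScramble (orange) cells for every measured gene of the YAP and TAZ lists (Ajuba is in both the target and the Hippo list); filled points are genes past the threshold in each of their probes. Filled orange points are seen for Ccn2, Ccn5, Gadd45a, Runx1 and F3, and for none of the Hippo cascade.

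Of 36 genes of the Hippo cascade and its upstream regulators, 17 were measured. Against wt cells 3 were higher, 2 were lower and 2 (Taok3 and Ywhab) passed in 1 of 2 probes, and against siScramble cells none passed in any probe. The all-gene shares were the same 7.26% higher and 9.46% lower, and 1.67% and 1.31%. Of all 8899 named genes, 362 against wt and 78 against siScramble cells passed in some probe without being called higher or lower. The Ywhab probe that passed was lost in 9 of 18 alternatives (highest limma adjusted p = 0.174), among them those without replicate 2, 3 or 4 (0.0216 to 0.0277). The 3 that were higher against wt cells were Crb3, which sets apical polarity (0.52 ± 0.13, SD, n = 4; limma adjusted p = 5.69e-05), Pard3, another polarity scaffold (0.26), and Taok1, a kinase upstream of the core cascade (0.25). Taok1 was lost in 7 of 18 alternatives (highest limma adjusted p = 0.0903), among them the replicate block (0.0052) and those without replicate 2, 3 or 4 (0.00675 to 0.0137). The 2 that were lower were the core kinase Stk3, or MST2 (-0.27), and Csnk1e, a casein kinase (-0.35 and -0.20 in its 2 probes). The latter Csnk1e probe was lost in 8 of 18 alternatives (highest limma adjusted p = 0.0416), among them those without replicate 1, 3 or 4 (0.00524 to 0.0344). Stk3 had a mean of -0.25 against siScramble cells (limma adjusted p = 0.014), which passed in 3 of 19 alternatives (lowest limma adjusted p = 0.00189), and its call against wt cells was lost in 2 of 18 (highest 0.0196). Between the comparisons the difference passed the threshold for Pard3 (0.23, limma adjusted p = 0.00425) and for none of the remaining 4. With same-numbered replicates of the comparisons paired as a block, Pard3 was lost (limma adjusted p = 0.00684), and Crb3 (0.000409) and the Csnk1e probe A_42_P515454 (0.00343) passed. The median log2 ratio of the 17 genes was 0.02 and 0.03.

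The 5 named genes whose 8 replicate ratios lay nearest to those of Ccn2, by Euclidean distance over both comparisons, were Plpp1 (0.138), B3galnt1 (0.17), Rnf181 (0.183), B2m (0.193) and Igf2r (0.22). Plpp1, a lipid phosphate phosphatase, had means of 0.43 and 0.33, and B2m, the light chain of MHC class I, had 0.48 and 0.29, beside 0.46 and 0.36 for Ccn2. This likeness is of size and direction only.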

How the data were processed

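Of the 16 arrays, the authors deposited fluorescence intensities per spot as scanner output (for Cy3 and Cy5, the mean intensity, the median of the local background and a processed intensity), with flags coded 0 or 1 as other values, and normalized log2 ratios of all arrays. Per the file headers Feature Extraction 10.1.1.1 was used, and the submitters' processing notes name limma. The deposited log2 values correlated with the ratios used here from -0.999 to -0.992 (column medians 0.000388 to 0.00739), so it holds control over siPax8, and it was used turned, as an alternative.

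R 4.3.3 and limma 3.58.1 (with statmod 1.5.0) were used for normexp background correction (offset 50), loess within arrays with weight 0 for control and outlier spots, removal of 1639 control spots of 45018, quantile normalization of all channels, and averaging over repeated spots and over the dye swaps of a replicate. The 4 values of a probe in each comparison entered lmFit and eBayes, with 5.84 and 4.01 prior degrees of freedom. The comparisons were set against each other as separate groups. The self-test on simulated data was run for both. Probe symbols come from RefSeq accessions (GRCr8 names only); 30244 probes had none.

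Same-numbered arrays of swapped dyes mostly deviated together (correlations 0.119 to 0.471 against wt, 0.332 to 0.58 against siScramble cells). With other numbers the correlations reached 0.253 and 0.351. Replicate 2 against wt cells was an exception, with 0.119 for its own number and up to 0.203 with another. The swapped arrays of a replicate were averaged as technical pairs, as the design gives them. Between the comparisons the correlations of the same number were 0.0449 to 0.566. For replicates 2 and 3 they were 0.175 and 0.0449, below the 0.408 reached with another number. Pairing by number therefore served as an alternative only.

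The members and gene lists were chosen with earlier results of these data known. Named were the members, Pax8, the measured CCN genes and effectors, listed targets and Hippo genes past the threshold (where more than 6, those with the largest absolute log2 ratio averaged over both comparisons), markers above or never above background, and the 5 genes nearest to Ccn2. Processed signals, normalization, background, dim-probe filter, dye, blocks and left-out replicates were varied.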

Additional observations from a re-analysis of the deposited data

Results flagged for a closer look

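In 1 of the 16 sets of 4 replicates tested (8 member probes in both comparisons), the highest value lay far from the others: Ccn1 probe A_44_P218896 against siScramble cells, where the gap to the next replicate was 0.879 of the whole range, beyond Dixon's 95% limit. Chance alone would mark about 1 set in 20. The value of 2.20 in replicate 3 came from a spot on a single array whose local background was 4581 at an intensity of 1003.

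Ankrd1 (A_44_P284753) differed between the comparisons, with a log2 ratio to wt cells lower than that to siScramble cells by a difference of -0.314 (limma adjusted p = 0.00161). All 4 replicates were below 0 against wt cells and all 4 were above 0 against siScramble cells. With the same-numbered replicates paired as a block the limma adjusted p was 0.00222.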

How the results depend on the processing

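Of 1254 recomputed values of single genes and differences, 1101 kept their direction and their side of the threshold or moved by less than the spread between replicates, and none past the threshold changed direction. The number of member probes past the threshold was 4 against wt cells and 2 against siScramble cells. Over all 41012 probes these numbers were 6260 and 867. With the scanner software's processed intensities the member number was 1 and 0. At an unadjusted limma p below 0.05 it was 5 and 3 there, beside 13402 and 7220 of all probes. It was 4 and 1 with the authors' deposited log2 ratios, and 4 and 1 with the replicate block, which pairs the arrays of a replicate. With siPax8 in Cy5 alone it was 4 and 0. Against siScramble cells 3 member probes had an unadjusted limma p below 0.05 in that setting, beside 8718 of all probes. Leaving out each replicate gave 3 to 4 against wt and 0 to 1 against siScramble cells, 0 without replicate 2 or 3. The difference between the comparisons was past the threshold for 1 member probe, beside 3.44% of all probes. It was past it for 0 with processed intensities or siPax8 in Cy3 alone, and for 0 to 1 when each replicate was left out. At an unadjusted limma p below 0.05 these were 3 with processed intensities and 2 with Cy3 alone, and the all-probe number was not computed. Pairing the comparisons by number changed no call on a member. Without the array of replicate 3 with siPax8 in Cy3, a choice made after seeing the data, 1 member probe and 243 probes in all passed against siScramble cells.

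Over all probes 6260 passed against wt and 867 against siScramble cells. These were 1757 and 29 with processed intensities, 3492 and 3585 with siPax8 in Cy3 alone, and 3375 to 6982 and 119 to 412 when each replicate was left out. Against siScramble cells the number was 215 with siPax8 in Cy5 alone, 1704 with the replicate block (pairing the arrays of a replicate), 2599 with a dye term, 2431 with a slide block and 1752 with both comparisons in one fit. With loess alone 3381 were higher and 3015 lower against wt cells, compared with 2886 and 3374, so that the balance turned, and 418 and 179 against siScramble cells, compared with 499 and 368. The cause of these shifts was not tested. Dim probes (Ccn3, Axl, Thbs1) have ratios limited by signal over background.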
